A study of Mus musculus with 8 samples.

Results

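The E2F transcription factors and their DP dimerization partners were followed across 3 mouse fibroblast lines on 8 Affymetrix expression arrays. The family was taken as 10 genes, E2f1 to E2f8, Tfdp1 and Tfdp2. Its members were the probe sets whose RefSeq transcript maps to 1 of these symbols, and probe sets with identical values on all arrays were counted once. There were 11 such probe sets, because E2f6 has 2 with the same values, and 2 unnamed probe sets carry the values of E2f7 and of Tfdp2. This gave 10 distinct profiles, 1 for each gene, of 18172 distinct profiles and 15540 named genes on the array. E2f1, E2f2 and E2f3 were grouped as activators, and E2f4, E2f5, E2f6, E2f7 and E2f8 as repressors.

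The study set asymmetric self-renewal (ASYM) against symmetric self-renewal, with p53 absent (SYM) or induced (p53SYM). By its account an asymmetric division yields a cycling daughter and a daughter arrested at G1/S, so ASYM cultures hold both. All 3 lines descend from p53-null murine fetal fibroblasts, and all were kept for 48 h in 65 µM ZnCl2 with puromycin at 5 µg/ml. Ind-8 (ASYM, 3 arrays) carries a wild-type mouse p53 cDNA behind a modified human metallothionein promoter, which zinc switches on. Con-3 (SYM, 3 arrays) was made with the same promoter vector lacking the cDNA; the sample labels name it as the parent of Ind-8, whereas the methods name it a vector control. tI-3 (p53SYM, 2 arrays) was derived from Ind-8, also induces p53 under zinc, and expresses an IMPDH II cDNA constitutively. Only the tI-3 medium held G418, and labels and methods differ on its dose. Each state is represented by 1 line, so state, line and selection cannot be told apart. Arrays of a line carry separate preparations of that line, and p-values measure the spread between these.

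E2F proteins bind the promoters of genes needed for S phase, most of them as dimers with a DP protein. The pocket proteins RB1, p107 (Rbl1) and p130 (Rbl2) hold them in check until cyclin-dependent kinases release them late in G1, and p21 (Cdkn1a), a well-known p53 target, inhibits those kinases. E2F4 and E2F5 join p107 or p130 and the MuvB core in a repressor complex of non-dividing cells, E2F6 represses through Polycomb-type partners, and E2F7 and E2F8 repress without any DP protein.

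Values are deposited log2 levels, in which a difference of 1 is a doubling. A level can be compared between arrays for 1 probe set, but across probe sets it gives signal on the array and not the amount of RNA. Median levels of the arrays lay between 6.13 and 6.20. Pearson's r across profiles, which are not independent replicates, ran from 0.994 to 0.996 where both arrays came from 1 line (7 pairs) and from 0.979 to 0.988 where they did not (21 pairs). Controls added at hybridization (18 probe sets) had means of 9.95, 9.88 and 9.89 in Ind-8 and of 9.94 and 10.00 in Con-3 replicates 1 and 2. Their means were 10.44 in Con-3 replicate 3 and 10.24 and 10.46 in tI-3, so these 3 arrays had a high control level and the other 5 a low one. Con-3 replicate 3 also stood apart in the 3 probe sets for 18S ribosomal RNA, with a mean of 10.63 against 5.58 to 6.46 on the other arrays. Results are therefore given without this array and with the control level as a block in the fit. All Ind-8 arrays had the low level and both tI-3 arrays the high level, so only Con-3 links the levels. In Ind-8 against Con-3 the block gives the values found without Con-3 replicate 3. In both comparisons with tI-3 it depends on Con-3 replicate 3, the only Con-3 array at the high level.

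The labels were checked against 4 marker genes. The rank product test, the study's own method, called 0 of them in each comparison, so the calls below are those of limma. Trp53 had levels of 5.68, 5.87 and 5.80 in Ind-8, 5.21, 5.29 and 5.27 in Con-3 and 5.60 and 5.69 in tI-3. It was higher in Ind-8 than in Con-3 by 0.53 (standard error, SE, 0.0874; adjusted p = 0.0018) and in tI-3 than in Con-3 by 0.39 (SE 0.0977, adjusted p = 0.0141), as the labels give p53. The latter call was lost without tI-3 replicate 2 (0.34, adjusted p = 0.106) and with the control level as a block (0.38, adjusted p = 0.101). Impdh2 was at 12.16, 12.19 and 12.22 in Ind-8, at 12.51, 12.56 and 12.53 in Con-3 and at 12.34 and 12.38 in tI-3. It fell in Ind-8 against Con-3 (difference −0.34, SE 0.0787, adjusted p = 0.0112), and tI-3 lay between them with no call against either line, so the transgene gave no called rise at this probe set. The study, citing earlier work, gives IMPDH II expression as raised in p53SYM over SYM. At this probe set tI-3 minus Con-3 was −0.17 (limma, adjusted p = 0.179), so that rise was not seen here. Whether the probes read the transgene was not tested. The zinc-induced metallothioneins were bright on all arrays, Mt1 between 13.47 and 13.95 and Mt2 between 12.94 and 13.56. Mt2 was lower in tI-3 than in Con-3 (−0.39, SE 0.108, adjusted p = 0.0242), a call that was lost without tI-3 replicate 2 (0.211) or Con-3 replicate 2 (0.0854), with the control level as a block (−0.32, 0.197) and with the arrays quantile-normalized again (−0.16, 0.288).

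A level under 4.29, the 25th percentile of all profiles, is called dim here. Of 8 fibroblast markers 7 were above it, with the highest signal at Vim (mean 13.89), whereas Thy1 (4.16) was dim. The mean of the 8 was 10.80, 11.06 and 11.08 on the Ind-8 arrays, 10.62, 10.85 and 10.88 on the Con-3 arrays and 10.42 and 10.44 on the tI-3 arrays. This mean covers opposite differences. limma called 2 higher and 1 lower in Ind-8 against Con-3, 4 higher and 1 lower in Ind-8 against tI-3 and 3 higher and 2 lower in tI-3 against Con-3. Over all profiles it called 10.8% higher and 10.2% lower, 15.9% and 14.8%, and 10.3% and 15.6% in the same order. The rank product test called 0, then 2 higher, then 1 lower of the 8.

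The largest of these differences were in Col3a1 and Col1a1, whereas the further collagen gene Col1a2 was not called in any comparison. Col3a1 was higher in Ind-8 than in tI-3 by 2.42 (adjusted p = 0.00121, with the control level as a block 2.69 and 0.0546) and lower in tI-3 than in Con-3 (−2.68, adjusted p = 0.000574). Col1a1 was higher in Ind-8 than in tI-3 by 1.49 (adjusted p = 0.000846) and lower in tI-3 than in Con-3 (−1.06, adjusted p = 0.00448), the latter lost without tI-3 replicate 1 (−0.85, 0.0512). In Ind-8 against Con-3, Col1a1 was not called (0.43, adjusted p = 0.143), except with a replicate block (0.43, 0.00678). Fn1 was higher in Ind-8 than in Con-3 (0.70, adjusted p = 0.000292) and tI-3 (0.42, adjusted p = 0.00785, with the control-level block 0.42 and 0.186). It was also higher in tI-3 than in Con-3 (0.28, adjusted p = 0.0474), a call lost without any 1 of the 8 arrays (0.0561 to 0.228) and with the block (0.28, 0.194). Pdgfrb was higher than in Con-3 both in Ind-8 (0.38, adjusted p = 0.00985) and in tI-3 (0.33, adjusted p = 0.0295), the latter lost without Con-3 replicate 1 (0.0566) or 3 (0.0735) or tI-3 replicate 1 (0.117) or 2 (0.105) and with the block (0.43, 0.0516). Vim was higher in Ind-8 than in tI-3 (0.39, adjusted p = 0.0125), a call lost without tI-3 replicate 2 (0.30, 0.116), with the arrays quantile-normalized again (0.11, 0.365) and with the block (0.43, 0.191). The dim Thy1 was lower in Ind-8 than in tI-3 (−0.67, adjusted p = 0.00149, with the block −0.48 and 0.153) and than in Con-3 (−0.30, adjusted p = 0.0458), the latter lost without any 1 array (0.0524 to 0.153), with quantile normalization repeated (−0.24, 0.0856) and with the block (−0.24, 0.153). It was higher in tI-3 than in Con-3 (0.37, adjusted p = 0.0269), a call lost without Con-3 replicate 1 (0.0677) or 2 (0.0873) or tI-3 replicate 1 (0.16) or 2 (0.0559), with quantile normalization repeated (0.25, 0.098) and with the block (0.24, 0.278).

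Dim means were found for 3 of 4 epithelial markers (highest signal Cldn4, 4.95), 3 of 4 endothelial markers (Kdr, 6.15) and 2 of 3 measured leukocyte markers (Csf1r, 5.47). No epithelial marker was called by limma on all arrays in any comparison. In tI-3 against Con-3, Cldn4 (0.33, adjusted p = 0.0576) was called over profiles above the dim level only (0.0493) and without Con-3 replicate 1 (0.42, 0.0253), and Epcam (0.31, adjusted p = 0.0532) without tI-3 replicate 1 (0.42, 0.0436). At an unadjusted p under 0.05 there were 0 in Ind-8 against Con-3, 1 in Ind-8 against tI-3 and 2 in tI-3 against Con-3, and the rank product test gave 0 in each. The endothelial list averaged 4.39, 4.27 and 4.46 on the Ind-8 arrays, 4.49, 4.54 and 4.67 on the Con-3 arrays and 4.69 and 4.70 on the tI-3 arrays. Kdr was lower in Ind-8 than in tI-3 (−0.76, adjusted p = 0.000836, with the block −0.63 and 0.0944) and than in Con-3 (−0.32, adjusted p = 0.0385), and higher in tI-3 than in Con-3 (0.44, adjusted p = 0.0129). Its call in Ind-8 against Con-3 was lost without Con-3 replicate 1 (0.0881) or 3 (0.123) or any Ind-8 array (0.0518, 0.126 and 0.0873) and with the block (−0.28, 0.123). That in tI-3 against Con-3 was lost without Con-3 replicate 2 (0.0507) or tI-3 replicate 2 (0.121) and with the block (0.36, 0.143).

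The leukocyte list averaged 4.14, 4.17 and 4.09 on the Ind-8 arrays, 4.10, 4.32 and 4.38 on the Con-3 arrays and 4.31 and 4.33 on the tI-3 arrays. Csf1r was lower in Ind-8 than in tI-3 (−0.44, adjusted p = 0.0112), a call lost without tI-3 replicate 1 (0.057) or 2 (0.0576) and with the block (−0.31, 0.36), and higher in tI-3 than in Con-3 (0.33, adjusted p = 0.0407). The latter was lost without Con-3 replicate 1 (0.098) or 2 (0.103), Ind-8 replicate 3 (0.052) or tI-3 replicate 1 (0.15) or 2 (0.129), with quantile normalization repeated (0.27, 0.0659) and with the block (0.25, 0.291). The rank product test called 0 endothelial and 0 leukocyte markers in each comparison. The part of other cell types in the results was not tested, and fewer cells of a type cannot be told apart from less RNA per cell in these bulk samples.

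Promoter sequences were found for 8 of the 10 members (12 windows, mouse RefSeq, GRCm38.p6), each a window of 300 bases with 50 of them after a start. E2f4 and E2f5 are given by name. E2F-type letters (TTTCCCGC, TTTCGCGC, TTTGCCGC or TTTGGCGC on either strand) were present in windows of 4 members, E2f2, E2f3, E2f7 and Tfdp1, and in 2.26% of all 32851 promoter windows (744). Windows follow annotated starts, some of which may lie inside a gene. The E2f1 window may be of this kind, so its lack of these letters says nothing of the E2f1 promoter. The windows with these letters are shown because E2f2, E2f7 and Tfdp1 were called below and E2f3 was not; E2f8, which had the largest difference between lines in the family, is shown beside them. Capitals mark the E2F-type letters. The E2f2 window is chr4:136172024-136172323 on the plus strand, that of E2f3 is chr13:29986014-29986313 on the minus strand and that of E2f7 is chr10:110745189-110745488 on the plus strand. That of Tfdp1 is chr8:13338501-13338800 on the plus strand and that of E2f8 is chr7:48881547-48881846 on the minus strand.
E2f2 promoter: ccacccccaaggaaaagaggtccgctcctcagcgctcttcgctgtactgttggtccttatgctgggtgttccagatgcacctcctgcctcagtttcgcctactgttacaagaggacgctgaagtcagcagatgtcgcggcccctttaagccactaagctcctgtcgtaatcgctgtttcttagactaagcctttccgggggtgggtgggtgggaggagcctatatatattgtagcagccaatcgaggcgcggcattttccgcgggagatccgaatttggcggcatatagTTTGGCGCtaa
E2f3 promoter: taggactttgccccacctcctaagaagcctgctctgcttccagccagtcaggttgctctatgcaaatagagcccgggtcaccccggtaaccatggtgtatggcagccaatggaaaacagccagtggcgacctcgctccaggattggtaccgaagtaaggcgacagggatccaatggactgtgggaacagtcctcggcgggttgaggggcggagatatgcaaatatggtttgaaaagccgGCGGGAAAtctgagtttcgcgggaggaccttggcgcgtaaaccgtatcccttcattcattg
E2f7 promoter: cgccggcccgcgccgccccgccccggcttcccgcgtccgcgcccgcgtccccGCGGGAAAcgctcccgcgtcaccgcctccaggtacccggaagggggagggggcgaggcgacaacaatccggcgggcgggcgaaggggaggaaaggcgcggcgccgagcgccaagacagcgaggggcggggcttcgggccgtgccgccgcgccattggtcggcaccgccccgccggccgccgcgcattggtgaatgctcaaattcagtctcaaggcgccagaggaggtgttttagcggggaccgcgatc
Tfdp1 promoter: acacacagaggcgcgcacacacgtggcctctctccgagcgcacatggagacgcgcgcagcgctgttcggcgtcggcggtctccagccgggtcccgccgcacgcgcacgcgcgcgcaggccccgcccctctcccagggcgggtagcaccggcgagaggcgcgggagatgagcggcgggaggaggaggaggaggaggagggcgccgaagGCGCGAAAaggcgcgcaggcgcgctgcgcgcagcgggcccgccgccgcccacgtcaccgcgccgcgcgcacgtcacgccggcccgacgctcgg
E2f8 promoter: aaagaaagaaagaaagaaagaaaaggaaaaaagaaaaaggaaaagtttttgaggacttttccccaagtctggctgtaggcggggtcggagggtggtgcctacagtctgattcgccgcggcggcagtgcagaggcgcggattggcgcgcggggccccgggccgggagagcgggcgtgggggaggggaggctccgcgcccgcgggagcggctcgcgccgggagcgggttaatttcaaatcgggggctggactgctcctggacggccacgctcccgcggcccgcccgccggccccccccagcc

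Counting the start base as 0, the letters ran from 39 to 46 in E2f2, from -11 to -4 in E2f3, from -198 to -191 in E2f7 and from -43 to -36 in Tfdp1. They lie on the printed strand in E2f2 and on the opposite strand in the other 3, whose capitals are therefore the reverse complement. A further Tfdp1 window overlaps the printed one and holds the same site, so that 5 of the 12 windows hold the letters. The E2f8 window holds none of these letters. It holds TTTGAA, the letters of a cell cycle homology region, from -20 to -15 on the opposite strand, where the printed strand reads ttcaaa. On either strand these were in windows of E2f2, E2f3 and E2f8 and in 17.9% of all windows. The E2f2 match lies in a further window downstream (chr4:136180532-136180831), and the printed E2f2 window holds none. CCAAT, on either strand, was in windows of E2f2, E2f3, E2f7 and E2f8 and in 37.4% of all windows. A match describes letters in a window and says nothing of binding.

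Among the activators, E2f2 fell in Ind-8, E2f1 lay lowest in Ind-8 without passing the test, and E2f3 was not called in any comparison. E2f1, the activator named first in the family, had log2 levels of 8.11, 7.96 and 8.03 on the Ind-8 arrays, 8.28, 8.41 and 8.17 on the Con-3 arrays and 8.20 and 8.36 on the tI-3 arrays. Every Ind-8 array lay below every array of the other lines, while Con-3 and tI-3 overlapped. The difference was −0.25 against Con-3 (SE 0.097, adjusted p = 0.0929) and −0.24 against tI-3 (SE 0.108, adjusted p = 0.109), neither of them called. Quantile-normalizing the arrays again brought the difference from tI-3 to −0.42 (adjusted p = 0.0166), the only setting with a call. Under the control-level block it was also −0.42 but not called (0.218), and without tI-3 replicate 2 it was −0.16 (0.45). Between tI-3 and Con-3 the difference was −0.01, with a 95% confidence interval of −0.25 to 0.23.

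E2f2, an activator whose promoter window is shown above, had levels of 4.65, 4.64 and 4.78 in Ind-8, 5.05, 5.16 and 5.05 in Con-3 and 5.22 and 4.94 in tI-3. It was the member nearest the dim end of the array, at the 36.3 percentile of level, where differences may be understated. The Ind-8 arrays lay below all 5 others. E2f2 fell in Ind-8 to 76.0% of the Con-3 level (difference −0.40, SE 0.0995, adjusted p = 0.017) and to 76.4% of the tI-3 level (−0.39, SE 0.111, adjusted p = 0.0247). The call against Con-3 was lost without Ind-8 replicate 1 (adjusted p = 0.0539) or 2 (0.062) or Con-3 replicate 2 (0.0684). The call against tI-3 was lost without Ind-8 replicate 1 (0.0649) or 2 (0.0664) or tI-3 replicate 1 (−0.25, 0.18), with the arrays quantile-normalized again (difference −0.20, adjusted p = 0.235) and with the control level as a block (adjusted p = 0.245), where the difference was −0.44 and so not smaller. In tI-3 against Con-3 the difference was −0.01 (95% interval −0.25 to 0.24).

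E2f3, the remaining activator, had levels of 8.07, 7.82 and 7.88 in Ind-8, 8.06, 7.78 and 7.85 in Con-3 and 7.87 and 7.87 in tI-3. All lines overlapped. The differences were 0.03 for Ind-8 minus Con-3 (95% interval −0.20 to 0.26), 0.06 for Ind-8 minus tI-3 (−0.20 to 0.32) and −0.03 for tI-3 minus Con-3 (−0.29 to 0.23). Their signs turned with the scaling, since quantile-normalizing the arrays again gave −0.02, −0.12 and 0.11 in that order.

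**Figure D1:**
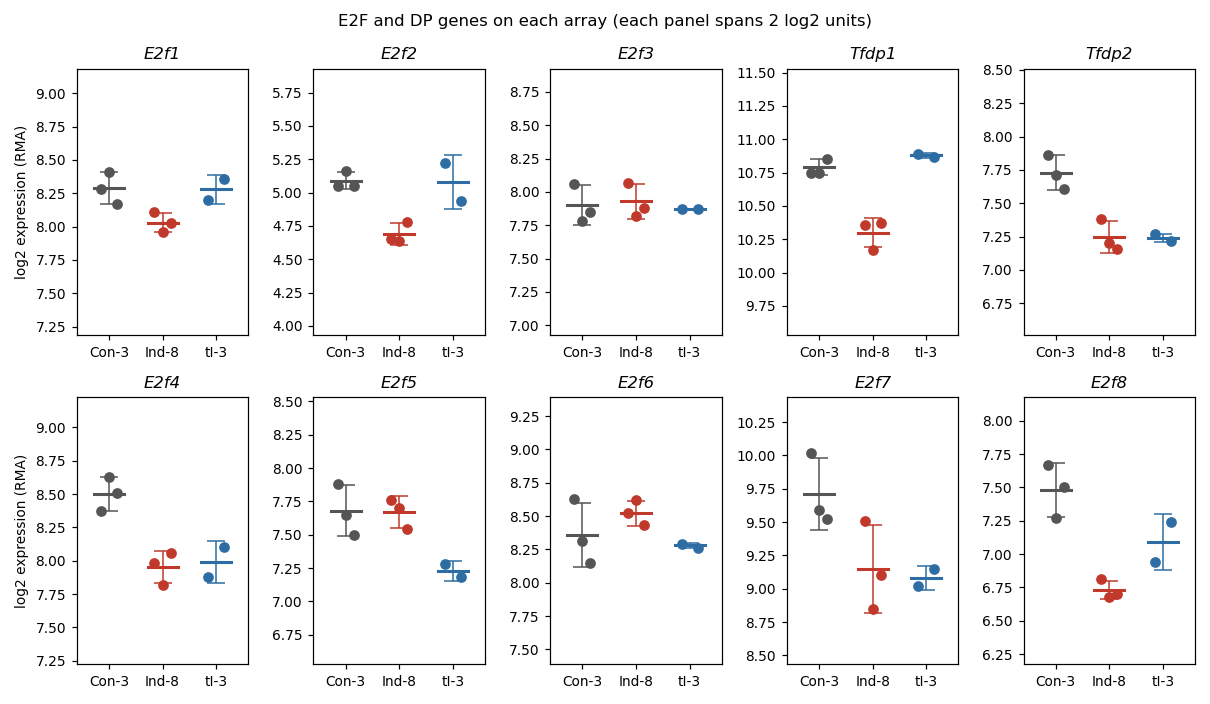
Log2 expression (RMA, vertical axis) of the 10 E2F and DP genes on each array of Con-3 (n = 3), Ind-8 (n = 3) and tI-3 (n = 2). Points are arrays, thick lines means and bars the standard deviation; each panel spans 2 log2 units around its own middle. E2f1, E2f2, Tfdp1 and E2f8 are lowest on the Ind-8 arrays, though E2f1 was not called. E2f4, E2f7, E2f8 and Tfdp2 are highest on the Con-3 arrays. E2f5 is lowest and Tfdp1 highest on the tI-3 arrays.

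Both canonical repressors, E2f4 and E2f5, fell in tI-3 against Con-3, and E2f4 also fell in Ind-8 against Con-3. E2f4, the repressor most tied to p107 and p130, had levels of 7.98, 7.82 and 8.06 in Ind-8, 8.37, 8.63 and 8.51 in Con-3 and 7.88 and 8.10 in tI-3. Con-3 lay above both other lines on every array, and Ind-8 and tI-3 overlapped. E2f4 fell to 68.3% of the Con-3 level in Ind-8 (−0.55, SE 0.108, adjusted p = 0.00493) and to 70.2% in tI-3 (−0.51, SE 0.121, adjusted p = 0.0111). The tI-3 call was lost without tI-3 replicate 1 (difference −0.40, adjusted p = 0.0945), with quantile normalization repeated (−0.36, 0.0651) and with the control level as a block (−0.52, 0.0738). Ind-8 minus tI-3 was −0.04 (95% interval −0.31 to 0.23).

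E2f5, the other canonical repressor, had levels of 7.76, 7.70 and 7.54 in Ind-8, 7.88, 7.65 and 7.50 in Con-3 and 7.28 and 7.18 in tI-3. Here tI-3 was the low line, below all 6 other arrays, and Ind-8 and Con-3 overlapped. E2f5 fell in tI-3 to 73.5% of the Con-3 level (−0.44, SE 0.125, adjusted p = 0.0251) and was higher in Ind-8 than in tI-3 by 0.43 (SE 0.125, adjusted p = 0.0258). Both calls were weak. That against Con-3 was lost without Con-3 replicate 1 (0.0659) or 2 (0.0565) or tI-3 replicate 1 (0.0655) or 2 (0.155). That against Ind-8 was lost without Ind-8 replicate 1 (0.0738) or 2 (0.0657) or tI-3 replicate 1 (0.0635) or 2 (0.156). Both were also lost with quantile normalization repeated (−0.32, adjusted p = 0.0651, and 0.26, adjusted p = 0.123) and with the control level as a block (−0.27, 0.291, and 0.18, 0.676). Ind-8 minus Con-3 was −0.01 (95% interval −0.26 to 0.24).

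E2f6, which represses without a pocket protein, had levels of 8.52, 8.62 and 8.43 in Ind-8, 8.63, 8.31 and 8.15 in Con-3 and 8.29 and 8.26 in tI-3. The Con-3 arrays spanned most of that range and overlapped both other lines, and Ind-8 lay above tI-3 without overlap. No difference was called: 0.16 for Ind-8 minus Con-3 (adjusted p = 0.41), 0.24 for Ind-8 minus tI-3 (adjusted p = 0.19) and −0.09 for tI-3 minus Con-3 (adjusted p = 0.676).

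The atypical repressors E2f7 and E2f8 were both highest in Con-3. E2f8 had levels of 6.81, 6.68 and 6.70 in Ind-8, 7.67, 7.27 and 7.50 in Con-3 and 6.94 and 7.24 in tI-3. Its lines did not overlap, with Con-3 above tI-3 and tI-3 above Ind-8. E2f8 fell in Ind-8 to 59.4% of the Con-3 level (−0.75, SE 0.121, adjusted p = 0.00169), the largest difference between lines among the 10 members in that comparison. This call was the only member call that the rank product test also made, and it held in each of the 18 other settings tried. The steps beside tI-3 were not called, at −0.36 for Ind-8 minus tI-3 (SE 0.136, adjusted p = 0.0687) and −0.39 for tI-3 minus Con-3 (SE 0.136, adjusted p = 0.0565). The former was called with quantile normalization repeated (−0.52, 0.0247), and the latter without Con-3 replicate 2 (−0.50, 0.0285) and over profiles above the dim level only (0.0482). Both also shrank, the former to −0.21 (0.417) without tI-3 replicate 2 and the latter to −0.24 (0.331) without tI-3 replicate 1. Under the control-level block they were −0.32 (0.506) and −0.42 (0.193).

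E2f7 had levels of 9.51, 8.85 and 9.10 in Ind-8, 10.02, 9.59 and 9.52 in Con-3 and 9.02 and 9.15 in tI-3. Con-3 lay above both other lines, by little at Ind-8 replicate 1 (9.51 against 9.52), and Ind-8 was spread around tI-3. E2f7 fell to 68.2% of the Con-3 level in Ind-8 (−0.55, SE 0.173, adjusted p = 0.0454) and to 64.8% in tI-3 (−0.63, SE 0.194, adjusted p = 0.037). The Ind-8 call was lost without Ind-8 replicate 2 (0.165) or 3 (0.103), Con-3 replicate 1 (0.13) or 2 (0.0693) or either tI-3 array (0.0652 each), and with limma on both compared lines only (0.0652). The tI-3 call was lost without Con-3 replicate 1 (0.101) or 2 (0.056) or tI-3 replicate 1 (0.165) or 2 (0.116), with quantile normalization repeated (−0.49, 0.101) and with the control level as a block (−0.44, 0.315). Ind-8 minus tI-3 was 0.07 (95% interval −0.36 to 0.50), a sign that turned to −0.06 with quantile normalization repeated.

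The DP partners, which give most E2Fs their DNA binding, both fell in Ind-8 against Con-3, and Tfdp2 also fell in tI-3 against Con-3. Tfdp1 had levels of 10.36, 10.17 and 10.37 in Ind-8, 10.75, 10.75 and 10.85 in Con-3 and 10.89 and 10.87 in tI-3. Ind-8 lay below all 5 other arrays. Tfdp1 fell in Ind-8 to 71.5% of the Con-3 level (−0.48, SE 0.0898, adjusted p = 0.00379) and to 67.1% of the tI-3 level (−0.58, SE 0.10, adjusted p = 0.00255). The latter call was lost with the control level as a block (−0.47, 0.164). tI-3 minus Con-3 was 0.09 (95% interval −0.13 to 0.31).

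Tfdp2 had levels of 7.38, 7.20 and 7.16 in Ind-8, 7.86, 7.71 and 7.61 in Con-3 and 7.27 and 7.22 in tI-3. Con-3 lay above both other lines, which overlapped. Tfdp2 fell to 71.7% of the Con-3 level in Ind-8 (−0.48, SE 0.0994, adjusted p = 0.00639) and to 71.5% in tI-3 (−0.48, SE 0.111, adjusted p = 0.00951). The tI-3 call was lost without tI-3 replicate 2 (−0.46, 0.0699) and with the control level as a block (−0.36, 0.133). Ind-8 minus tI-3 was 0.00 (95% interval −0.24 to 0.25), and −0.17 with quantile normalization repeated.

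In Ind-8 against Con-3, the comparison of p53-induced asymmetric with p53-null symmetric cells, 6 of the 10 members fell and 0 rose. The 6 were E2f2, E2f4, E2f7, E2f8, Tfdp1 and Tfdp2. Over all 18172 profiles limma called 21.1%, with 10.8% higher (1970) and 10.2% lower (1857); with the arrays centred on their medians the split was 1715 higher and 2442 lower. At an unadjusted p under 0.05, 0 members were higher and 7 lower, and the rank product test called 0 higher and 1 lower. Of the activators 1 of 3 fell, of the repressors 3 of 5 and of the DP partners 2 of 2. The median difference was −0.25 for activators, −0.55 for repressors, −0.44 for all 10 members and −0.06 for all profiles, and the signs for activators, repressors and all members were the same under the other scalings. Values did not overlap between the lines for 7 members, against 37.8% of all profiles. Without Con-3 replicate 3 the same 6 members were called. Within the low control level, Ind-8 minus Con-3 replicates 1 and 2 was −0.31 for E2f1, −0.41 for E2f2, −0.54 for E2f4, −0.65 for E2f7, −0.74 for E2f8, −0.45 for Tfdp1 and −0.54 for Tfdp2. It was 0.0 for E2f3, −0.1 for E2f5 and 0.05 for E2f6.

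tI-3 and Con-3 are both symmetric and differ in p53, in the IMPDH II cDNA and in G418. In tI-3 against Con-3, 4 of 10 members fell and 0 rose, where limma called 25.8% of all profiles (15.6% lower and 10.3% higher). At an unadjusted p under 0.05 the counts were 5 and 0, and the rank product test called 0. E2f4, E2f5, E2f7 and Tfdp2 fell, so the count was 3 of 5 repressors, 1 of 2 DP partners and 0 of 3 activators; 0 activators reached an unadjusted p under 0.05. The median difference was −0.44 for repressors, −0.01 for activators, −0.24 for all members and 0.03 for all profiles; quantile-normalizing again turned the activator median to 0.11 and left 1 member called, Tfdp2. With the control level as a block 0 members were called by limma, and 2 had an unadjusted p under 0.05. Without Con-3 replicate 3 and without the block, all 4 calls were kept. Within the high control level, tI-3 minus Con-3 replicate 3 was −0.52 for E2f4, −0.27 for E2f5, −0.44 for E2f7, −0.42 for E2f8 and −0.36 for Tfdp2. It was 0.11 for E2f1, 0.03 for E2f2, 0.02 for E2f3, 0.12 for E2f6 and 0.02 for Tfdp1. Without 1 array the count ran from 1 to 4, the lowest without tI-3 replicate 1 or 2; it was 2 without Con-3 replicate 1. Values did not overlap for 6 members, against 52.2% of all profiles.

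Ind-8 and tI-3 both have p53 induced and differ in self-renewal pattern, in the IMPDH II cDNA and in G418. In Ind-8 against tI-3, 3 of 10 members were called: E2f2 and Tfdp1 fell and E2f5 was higher. limma called 30.7% of all profiles (14.8% lower and 15.9% higher), so the share among the members was close to that of all profiles. With the arrays centred on their medians the split over all profiles was 2615 higher and 3510 lower. The count was 1 of 3 activators, 1 of 5 repressors and 1 of 2 DP partners. The median difference was −0.24 for activators, 0.07 for repressors, −0.02 for all members and −0.06 for all profiles; with quantile normalization repeated the repressor median turned to −0.06, and E2f1, E2f8 and Tfdp1 were the members called, all of them lower. With the control level as a block 0 members were called by limma, and 3 had an unadjusted p under 0.05. No array of either line shares a control level with the other, so no value within a level exists. Without Con-3 replicate 3 and without the block, all 3 calls were kept. The rank product test called 0. Without 1 array the count ran from 1 to 3, the lowest without Ind-8 replicate 1 or 2 or tI-3 replicate 1, and it was 2 without tI-3 replicate 2. Values did not overlap for 6 members, against 60.2% of all profiles.

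**Figure D2:**
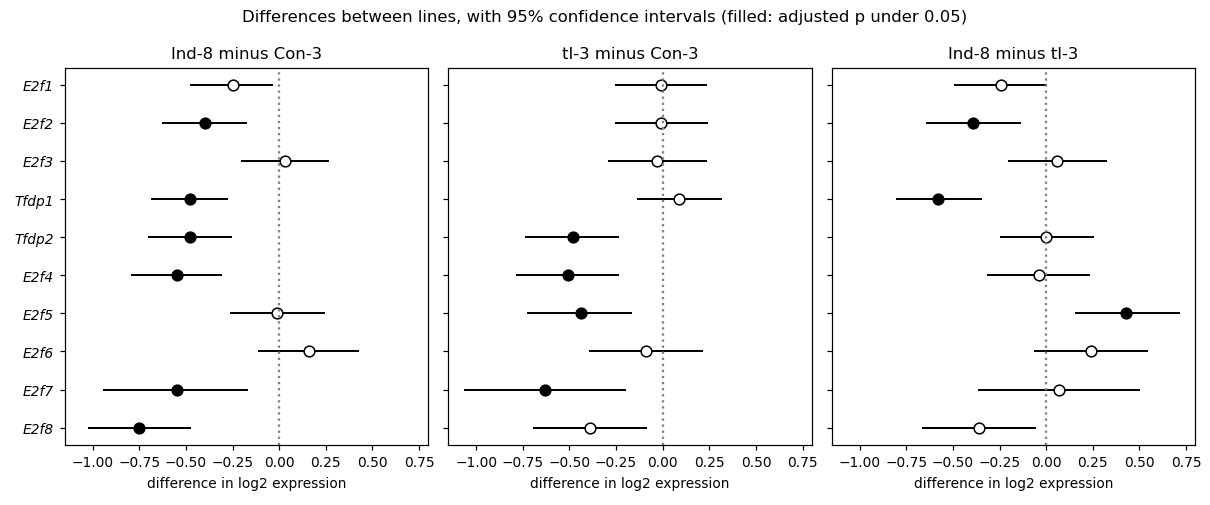
Difference in log2 expression (horizontal axis) of the 10 E2F and DP genes for Ind-8 minus Con-3, tI-3 minus Con-3 and Ind-8 minus tI-3. Points are limma estimates from all 8 arrays, lines are 95% confidence intervals, and filled points have an adjusted p under 0.05; filled points number 6, 4 and 3. The 3 panels share arrays, so they are not independent.

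Across all 3 lines, limma's F test called 7 of 10 members (70.0%), all but E2f1, E2f3 and E2f6, against 40.8% of all profiles. Set side by side, the mean of the 3 activators was 6.94, 6.81 and 6.90 on the Ind-8 arrays, 7.13, 7.12 and 7.02 on the Con-3 arrays and 7.09 and 7.06 on the tI-3 arrays. The mean of the 5 repressors was 8.12, 7.93 and 7.96 on the Ind-8 arrays, 8.51, 8.29 and 8.24 on the Con-3 arrays and 7.88 and 7.99 on the tI-3 arrays. The tI-3 arrays thus lay inside the Con-3 range for the activators and inside or below the Ind-8 range for the repressors. Whether activators and repressors differ in response was not tested. The 3 comparisons share arrays, so their counts are not independent of each other.

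Members differed in how they varied over the 8 arrays, which include the differences between lines. Pearson's r was 0.92 for E2f7 and Tfdp2, 0.89 for E2f2 and Tfdp1, 0.84 for E2f8 and Tfdp2 and 0.82 for E2f4 and Tfdp2. It was −0.69 for E2f6 and Tfdp1. The profiles most like E2f2 over the 8 arrays were Pttg1, which encodes securin (r = 0.984), Rfc3, a subunit of the clamp loader of DNA replication (0.972), and Trim30a (0.971), a gene that was dim on all arrays (3.67 to 3.99). Those most like E2f8 were Dido1 (0.974), Haspin, a histone kinase of mitosis (0.971), and Cenpu, a centromere protein (0.968). These are descriptions over 8 arrays of 3 lines and carry no test.

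The pocket proteins, which bind E2Fs, had limma calls in both directions, at 2 of 3 in Ind-8 against Con-3, 3 of 3 in Ind-8 against tI-3 and 1 of 3 in tI-3 against Con-3. In the same order, limma called 21.1%, 30.7% and 25.8% of all profiles. The rank product test called 0 of the 3 pocket proteins in each comparison. Its pfp (its estimate of the share of false positives) was 0.105 and 0.17 for Rb1, 0.199 and 0.38 for Rbl1 and 0.174 and 0.315 for Rbl2 where limma called them. Rb1 had levels of 7.46, 8.15 and 7.14 in Ind-8, 6.83, 6.83 and 6.79 in Con-3 and 6.81 and 6.69 in tI-3. Every Ind-8 array lay above all others, with a wide spread in Ind-8 (SD 0.52, n = 3). Rb1 was 1.70-fold higher in Ind-8 than in Con-3 (0.77, SE 0.202, adjusted p = 0.0216) and 1.78-fold higher than in tI-3 (0.84, SE 0.226, adjusted p = 0.0199). The former call was lost without Con-3 replicate 2 (0.0558) or 3 (0.0642), and the latter without tI-3 replicate 1 (0.0652) or 2 (0.124) and with quantile normalization repeated (0.0527). With the control level as a block the differences were 0.75 (adjusted p = 0.0642) and 0.79 (0.315). Much of the size rested on Ind-8 replicate 2, without which the differences were 0.48 (adjusted p = 0.0225) and 0.55 (0.0155).

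Rbl1, which encodes p107 and is itself a known E2F target, had levels of 7.86, 7.81 and 7.85 in Ind-8, 8.50, 8.30 and 8.33 in Con-3 and 8.50 and 8.37 in tI-3. At this probe set Rbl1 was low in Ind-8 alone. The fall was −0.54 against Con-3 (SE 0.0893, adjusted p = 0.00198) and −0.59 against tI-3 (SE 0.0999, adjusted p = 0.0021, with the control level as a block −0.66 and 0.0706). A further Rbl1 profile fell by 0.95 in Ind-8 against Con-3 (adjusted p = 0.0041) but was not called against tI-3 (−0.37, adjusted p = 0.177). Its levels were 7.39, 7.38 and 6.72 in Con-3 and 6.67 and 6.50 in tI-3. The profiles differed most in tI-3 against Con-3, at −0.57 (adjusted p = 0.0587) for this one and 0.05 (0.724) for the first, neither called.

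Rbl2, which encodes p130, had levels of 7.15, 7.48 and 7.21 in Ind-8, 7.11, 7.08 and 7.08 in Con-3 and 6.62 and 6.33 in tI-3. The tI-3 arrays were lowest, and Ind-8 lay above Con-3 without a call (0.19, SE 0.113, adjusted p = 0.278). Rbl2 was 1.75-fold higher in Ind-8 than in tI-3 (0.81, SE 0.126, adjusted p = 0.00143) and lower in tI-3 than in Con-3 (−0.62, SE 0.126, adjusted p = 0.00512). The latter call was lost without tI-3 replicate 2 (−0.47, 0.0672), and with the control level as a block both were lost (0.79, adjusted p = 0.0898, and −0.61, adjusted p = 0.0508). Over the 3 pocket proteins the median difference was 0.19 in Ind-8 against Con-3, 0.81 in Ind-8 against tI-3 and −0.07 in tI-3 against Con-3, the last turning to 0.03 with quantile normalization repeated.

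Among the cyclins, kinases and inhibitors of G1, of which 12 of 13 listed were measured, 5 rose and 3 fell in Ind-8 against Con-3. In Ind-8 against tI-3, 4 rose and 2 fell, and in tI-3 against Con-3 1 rose and 4 fell. Over all profiles 10.8% were higher and 10.2% lower in the first comparison, 15.9% and 14.8% in the next and 10.3% and 15.6% in the last. The rank product test kept fewer, at 2 higher and 1 lower, 2 and 0, and 1 and 1 in the same order. It kept Cdkn1a in all 3 comparisons, Cdkn2b and Cdk6 in the first, Cdkn2a in the next and Cdk6 in the last. Cdkn1a, the kinase inhibitor p21, had levels of 9.70, 9.70 and 9.59 in Ind-8, 5.73, 5.81 and 6.03 in Con-3 and 7.55 and 7.33 in tI-3. Its lines were far apart, with tI-3 between the others. Cdkn1a was higher in Ind-8 than in Con-3 (3.81, SE 0.106, adjusted p = 1.7e-08) and higher in tI-3 than in Con-3 (1.59, SE 0.118, adjusted p = 1.6e-05). The study's detection calls, which were not made again, score this gene as not detected in Con-3, so both differences from Con-3 are lower bounds. It was 4.66-fold higher in Ind-8 than in tI-3 (2.22, SE 0.118, adjusted p = 3.37e-06).

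Both inhibitors of the Cdkn2a-Cdkn2b locus, which act on the cyclin D kinases or on p53 turnover, were also highest in Ind-8. Cdkn2b was 0.97 higher than in Con-3 (SE 0.141, adjusted p = 0.000997) and 1.05 higher than in tI-3 (SE 0.157, adjusted p = 0.00116, with the control level as a block 0.88 and 0.11). Cdkn2a was 0.69 higher in Ind-8 than in Con-3 (SE 0.203, adjusted p = 0.0344) and 1.51 higher than in tI-3 (SE 0.227, adjusted p = 0.00119, with the block 1.40 and 0.0949), and it was lower in tI-3 than in Con-3 (−0.81, SE 0.227, adjusted p = 0.0241). The first Cdkn2a call was lost without Con-3 replicate 1 (0.0685), 2 (0.0723) or 3 (0.10) or Ind-8 replicate 2 (difference 0.41, adjusted p = 0.0534). The tI-3 call was lost without Con-3 replicate 1 (0.0533) or 2 (0.0649) or tI-3 replicate 2 (0.196), with quantile normalization repeated (−0.68, 0.0583) and with the control level as a block (−0.74, 0.166).

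Ccnd2, a D-type cyclin, was 0.93 higher in Ind-8 than in tI-3 (SE 0.204, adjusted p = 0.00752), a call that was lost without tI-3 replicate 2 (0.82, 0.0769) and with the control level as a block (1.03, 0.153). Cdk6, a kinase that pairs with D-type cyclins, fell in Ind-8 against Con-3 (−0.77, SE 0.167, adjusted p = 0.00798) and in tI-3 against Con-3 (−1.15, SE 0.187, adjusted p = 0.00148). Cdk2, the partner of cyclins E and A, fell in tI-3 against Con-3 (−0.41, SE 0.0937, adjusted p = 0.00896), a call that was lost without tI-3 replicate 1 (−0.36, 0.0637) and with the control level as a block (−0.39, 0.0803).

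The other called genes of this list are named after their values were seen. In Ind-8 against Con-3, Ccnd2 (0.68, adjusted p = 0.0228) and Ccnd1 (0.31, adjusted p = 0.0279) were higher, and Cdk2 (−0.33, adjusted p = 0.0178) and Cdkn2c (−0.59, adjusted p = 0.00384) lower. Of these, Ccnd2 was lost without Con-3 replicate 1 (0.0645), 2 (0.0534) or 3 (0.0519) or Ind-8 replicate 2 (0.0829) or 3 (0.0673). Ccnd1 was lost without Con-3 replicate 2 (0.0771) or 3 (0.0825) or Ind-8 replicate 2 (0.103) or 3 (0.057), and Cdk2 without Con-3 replicate 1 (0.0509) or Ind-8 replicate 2 (0.0686). In Ind-8 against tI-3, Cdkn2c was lower (−0.74, adjusted p = 0.00203, with the control level as a block −0.75 and 0.0972). The dim Cdkn1c was also lower there (−0.30, adjusted p = 0.0497), a call lost without any 1 array but tI-3 replicate 1 (0.0573 to 0.331, the latter at −0.18 without tI-3 replicate 2), with quantile normalization repeated (−0.15, 0.287) and with the block (−0.24, 0.503). In tI-3 against Con-3, Ccnd3 was lower (−0.38, adjusted p = 0.0453). That call was lost without any 1 array but Ind-8 replicate 2 or tI-3 replicate 2 (0.0516 to 0.31, the latter at −0.22 without tI-3 replicate 1), with quantile normalization repeated (−0.27, 0.173), with the block (−0.38, 0.197) and with a replicate block (−0.35, 0.0816).

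Median differences of the list were 0.12, 0.24 and −0.05 in the order Ind-8 against Con-3, Ind-8 against tI-3 and tI-3 against Con-3, and the last turned to 0.05 with quantile normalization repeated. Without Con-3 replicate 3 the counts in Ind-8 against Con-3 were 2 higher and 3 lower.

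**Figure D3:**
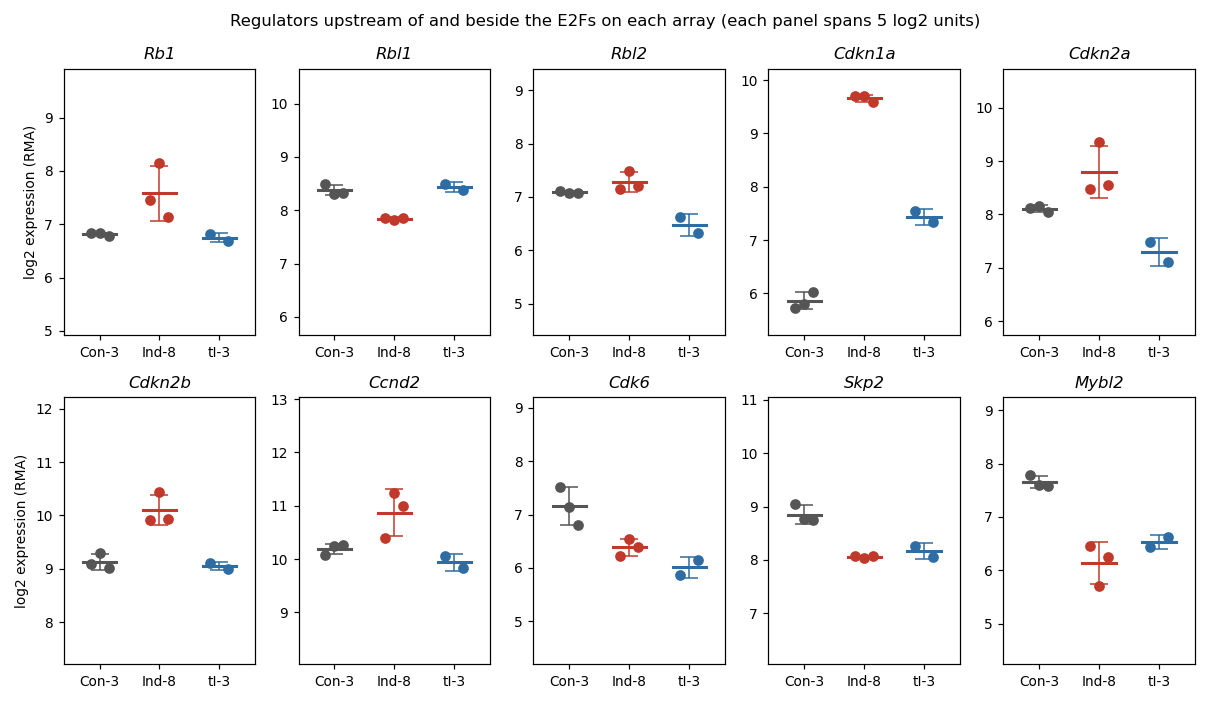
Log2 expression (RMA, vertical axis) of 10 regulators on each array of Con-3 (n = 3), Ind-8 (n = 3) and tI-3 (n = 2), drawn as for the family but with each panel spanning 5 log2 units. Cdkn1a separates the lines by the most, at means of 9.66 in Ind-8, 5.86 in Con-3 and 7.44 in tI-3. The first Rbl1 profile given in the text is low in Ind-8 alone, whereas Cdk6, Skp2 and Mybl2 are high in Con-3 alone.

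Of the 10 genes for E2F turnover and cofactors, 1 rose and 2 fell in Ind-8 against Con-3, 3 were higher and 0 lower in Ind-8 against tI-3, and 3 fell and 0 rose in tI-3 against Con-3. At an unadjusted p under 0.05, 1 was lower in Ind-8 against tI-3 and 0 were higher in tI-3 against Con-3, and the rank product test gave 0 for each of these. Of the genes limma called, the rank product test kept Skp2 alone in Ind-8 against Con-3, 0 in Ind-8 against tI-3 (pfp 0.0702 for Sirt1, 0.399 for Kat2a and 0.621 for Eapp) and Sirt1 alone in tI-3 against Con-3. The 3 of 10 called in each comparison stood against 21.1%, 30.7% and 25.8% of all profiles, in the order given, and were close to the shares in both comparisons with tI-3. Skp2, a ubiquitin ligase subunit that targets p27 and E2F1, was at 8.07, 8.04 and 8.08 in Ind-8, at 9.05, 8.76 and 8.74 in Con-3 and at 8.26 and 8.05 in tI-3. It fell to 58.0% of the Con-3 level in Ind-8 (−0.79, SE 0.106, adjusted p = 0.000661) and to 61.9% in tI-3 (−0.69, SE 0.119, adjusted p = 0.00199). Eapp, an E2F-associated phosphoprotein, rose in Ind-8 by 0.41 against Con-3 (SE 0.087, adjusted p = 0.00753) and by 0.41 against tI-3 (SE 0.0973, adjusted p = 0.0117). The latter call was lost without tI-3 replicate 2 (0.0692), with quantile normalization repeated (0.26, 0.0606) and with the control level as a block (0.39, 0.241).

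The acetyltransferase gene Kat2a and the deacetylase gene Sirt1 set tI-3 apart. Sirt1 was at 9.02, 9.01 and 8.52 in Ind-8, at 9.16, 8.78 and 8.82 in Con-3 and at 7.85 and 7.73 in tI-3. It was lower in tI-3 than in Con-3 (−1.13, SE 0.167, adjusted p = 0.000902), and higher in Ind-8 than in tI-3 (1.06, SE 0.167, adjusted p = 0.00149, with the control level as a block 0.91 and 0.12). Kat2a fell in tI-3 against Con-3 (−0.91, SE 0.12, adjusted p = 0.000487) and, less, in Ind-8 against Con-3 (−0.37, SE 0.108, adjusted p = 0.0323), and was higher in Ind-8 than in tI-3 (0.54, SE 0.12, adjusted p = 0.00833). Its call in Ind-8 against Con-3 was lost without Con-3 replicate 2 (0.0955) or 3 (0.106) or Ind-8 replicate 2 (0.12), and that against tI-3 without tI-3 replicate 1 (0.46, 0.0605) and with the control level as a block (0.67, 0.109). Median differences of the list were −0.16, −0.07 and −0.08 in the order Ind-8 against Con-3, Ind-8 against tI-3 and tI-3 against Con-3, and the last turned to 0.04 with quantile normalization repeated.

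In the MuvB list, of which 7 of 8 genes were measured, Mybl2 was the only gene called by limma on all arrays, so that 1 of 7 fell in Ind-8 against Con-3 and in tI-3 against Con-3, where 10.2% and 15.6% of all profiles were lower. Mybl2, the B-MYB partner of MuvB in dividing cells, was at 6.46, 5.70 and 6.25 in Ind-8, at 7.78, 7.60 and 7.58 in Con-3 and at 6.44 and 6.63 in tI-3. Con-3 was high and the other lines overlapped. Mybl2 fell to 34.9% of the Con-3 level in Ind-8 (−1.52, SE 0.168, adjusted p = 0.000204) and to 46.0% in tI-3 (−1.12, SE 0.188, adjusted p = 0.00178). In Ind-8 against tI-3 it was not called (−0.40, SE 0.188, adjusted p = 0.13), except without Ind-8 replicate 1 (−0.56, 0.0475). There limma called 0 of the 7, with 2 at an unadjusted p under 0.05 and 0 by the rank product test. Other genes of the list were called in single settings only. Foxm1 fell in Ind-8 against Con-3 without Ind-8 replicate 1 (−0.55, 0.0387, against −0.41 and 0.0961 on all arrays). With quantile normalization repeated, Mybl1 was higher (0.43, 0.0402) and Rbbp4 lower (−0.37, 0.0191) in Ind-8 against tI-3. With a replicate block, Lin54 was higher in Ind-8 than in tI-3 (0.36, 0.0285) and lower in tI-3 than in Con-3 (−0.54, 0.00583). Median differences were −0.22 in Ind-8 against Con-3, −0.13 in Ind-8 against tI-3 and −0.06 in tI-3 against Con-3.

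Of the E2F6 partners, 7 of 9 were measured, and 2 fell in Ind-8 against Con-3, 1 in tI-3 against Con-3 and 0 in Ind-8 against tI-3, where 1 had an unadjusted p under 0.05. By rank product 0 were called in each comparison (pfp 0.105 and 0.372 for Pcgf6 and 0.552 for L3mbtl2). Over all profiles 10.2% were lower in Ind-8 against Con-3 and 15.6% in tI-3 against Con-3. Pcgf6, a Polycomb-type ring finger protein, was at 8.72, 8.60 and 8.62 in Ind-8, at 9.42, 9.20 and 9.20 in Con-3 and at 8.76 and 8.64 in tI-3. It fell in Ind-8 (−0.63, SE 0.0949, adjusted p = 0.0012) and in tI-3 (−0.57, SE 0.106, adjusted p = 0.00301) against Con-3. L3mbtl2, a chromatin-binding partner, fell in Ind-8 against Con-3 (−0.37, SE 0.109, adjusted p = 0.0355). That call was lost without Con-3 replicate 2 (0.11) or 3 (0.0936), Ind-8 replicate 2 (0.116) or either tI-3 array (0.0516 each). L3mbtl2 was not called in Ind-8 against tI-3 (−0.33, adjusted p = 0.06). It was called lower there with median centring (0.0383), quantile normalization repeated (−0.47, 0.0213), a replicate block (0.0468) or without Ind-8 replicate 3 (0.047). Max, named after its value was seen, was not called in tI-3 against Con-3 (0.41, adjusted p = 0.0955). It was called higher with quantile normalization repeated (0.54, 0.0317), limma on both compared lines only (0.0342) or without Ind-8 replicate 3 (0.0242). Median differences of the list were 0.06 in Ind-8 against Con-3, −0.05 in Ind-8 against tI-3 and −0.03 in tI-3 against Con-3, the last turning to 0.09 with quantile normalization repeated.

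Known E2F target genes of S phase entry fell widely in Ind-8 against Con-3. Of 38 measured (40 listed), 28 fell and 0 rose, where 10.2% of all profiles were lower; at an unadjusted p under 0.05, 30 were lower and 0 higher, and the rank product test called 8 lower and 0 higher. The median difference was −0.47, against −0.06 over all profiles. Rpa2, a subunit of the single-strand binding protein, was at 8.82, 8.77 and 8.91 in Ind-8, at 9.88, 9.90 and 9.88 in Con-3 and at 9.24 and 9.17 in tI-3. Its lines did not overlap. It fell in Ind-8 to 48.1% of the Con-3 level (−1.06, SE 0.0831, adjusted p = 2.89e-05). The next largest falls were in Cdc6, a loader of the replicative helicase (−0.94, SE 0.0979, adjusted p = 0.000143), Ung, a uracil-DNA glycosylase (−0.92, SE 0.0972, adjusted p = 0.00016), and Mcm5, a helicase subunit (−0.86, SE 0.0973, adjusted p = 0.000233). Without Con-3 replicate 3, 23 targets were called, and without Ind-8 replicate 2, 22.

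In tI-3 against Con-3, 15 of the 38 targets fell and 1 rose, where 15.6% of all profiles were lower and 10.3% higher, with a median difference of −0.23 against 0.03. By rank product 0 targets were called, with a pfp for Ung of 0.0933, for Orc1 of 0.107, for Cdc6 of 0.143 and for Mcm5 of 0.186. The largest falls were in Ung (−0.92, SE 0.109, adjusted p = 0.000271), the origin-binding protein gene Orc1 (−0.88, SE 0.125, adjusted p = 0.000709), Cdc6 (−0.82, SE 0.109, adjusted p = 0.000504) and Mcm5 (−0.75, SE 0.109, adjusted p = 0.000812). On the tI-3 arrays these 4 lay close to Ind-8, with Ung at 7.18 and 7.11 in tI-3 and 7.28, 7.10 and 7.04 in Ind-8. The gene that rose was Chaf1b, a histone chaperone subunit (0.44, adjusted p = 0.0121), named after its value was seen; its call was lost without tI-3 replicate 2 (0.0791) and with the control level as a block (0.43, 0.084). With the control level as a block 6 targets were called. Without 1 array the count ran from 7 to 17, the lowest without tI-3 replicate 2.

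In Ind-8 against tI-3, 12 targets fell and 1 was higher, where 14.8% of all profiles were lower and 15.9% higher, with a median difference of −0.22 against −0.06. Ccna2, cyclin A2, was at 10.40, 10.28 and 10.47 in Ind-8, at 11.04, 11.07 and 11.19 in Con-3 and at 11.13 and 11.03 in tI-3. It was low in Ind-8 alone and fell by 0.69 against tI-3 (SE 0.102, adjusted p = 0.00102). Falls were also called in Tyms, thymidylate synthase (−0.61, SE 0.152, adjusted p = 0.014), Ezh2, a Polycomb methyltransferase (−0.54, SE 0.119, adjusted p = 0.00789), and Mcm3, a helicase subunit (−0.50, SE 0.123, adjusted p = 0.0129). The calls of Tyms (0.0539), Ezh2 (0.051) and Mcm3 (0.0733) were lost without tI-3 replicate 1, and those of Tyms (0.0924) and Mcm3 (0.0547) without replicate 2. The gene that was higher was Msh6, a mismatch repair protein (0.43, adjusted p = 0.0132), named after its value was seen; its call was lost without tI-3 replicate 1 (0.056) or 2 (0.075). With the control level as a block limma called 0 targets, and the rank product test called 0 without the block. Under the block the differences were −0.56 for Ccna2, −0.71 for Tyms, −0.59 for Ezh2 and −0.49 for Mcm3. Without 1 array the count ran from 2 to 13, the lowest without tI-3 replicate 1.

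**Figure D4:**
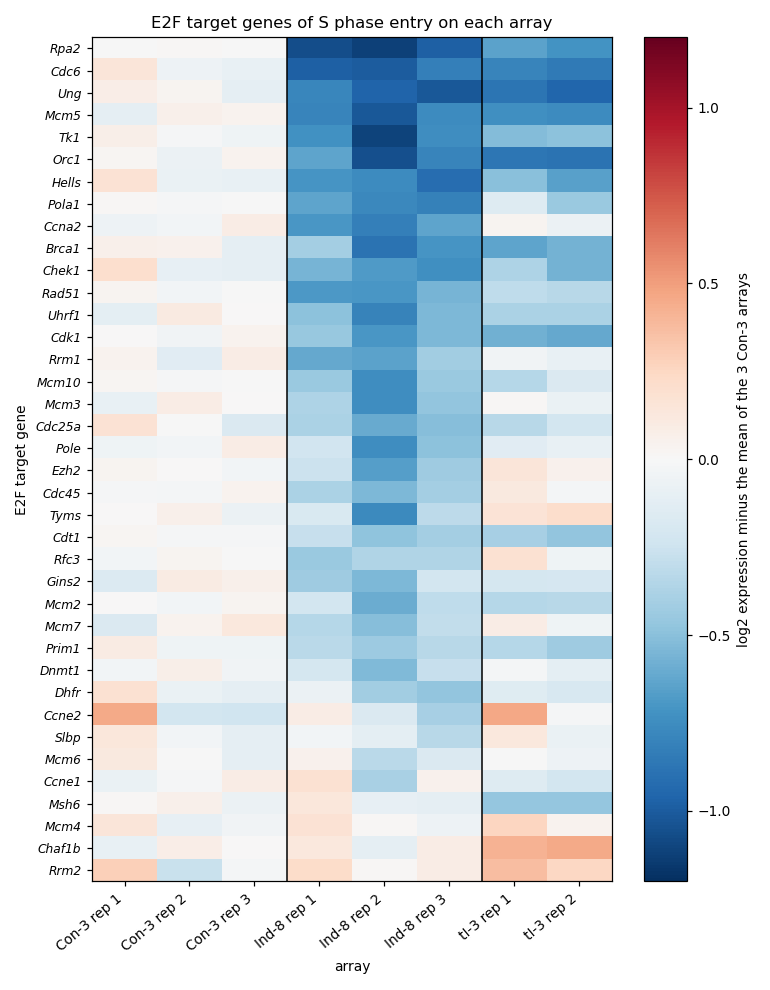
Heat map of 38 E2F target genes of S phase entry (down) on the 8 arrays (across). Colour is the log2 level minus the mean of the 3 Con-3 arrays, with genes ordered by Ind-8 minus Con-3. Most genes are blue on the Ind-8 arrays (28 called lower), while on the tI-3 arrays some, such as Ung and Orc1, are as low as in Ind-8 and others, such as Ccna2 and Rrm1, are near the Con-3 level.

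**Figure D5:**
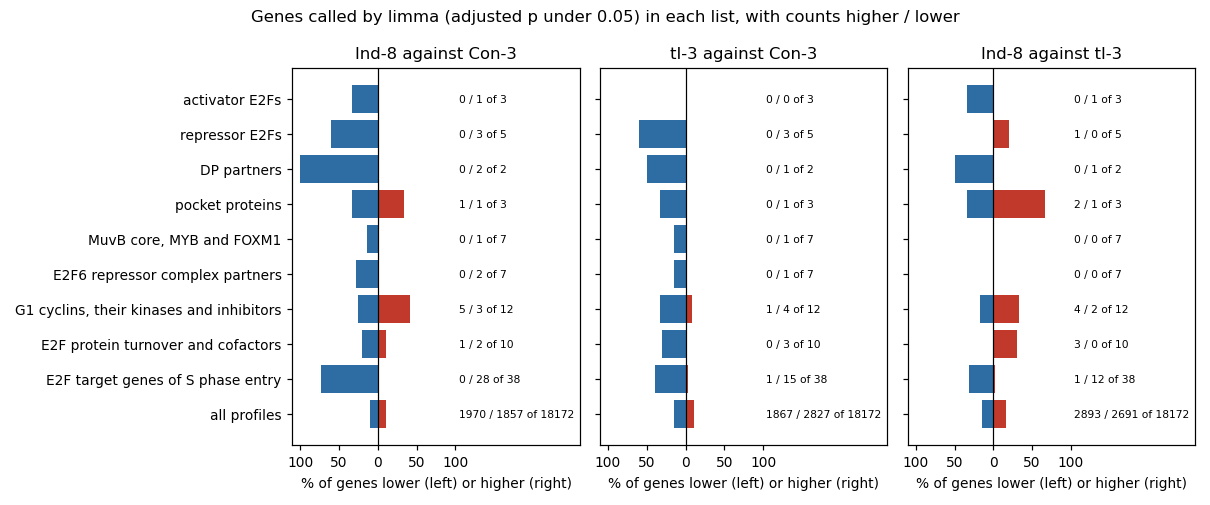
Percent of the genes of each list called lower (left, blue) or higher (right, red) by limma at an adjusted p under 0.05, in each comparison, with counts higher / lower of those measured. All profiles on the array form the bottom bar, at 10.2% lower and 10.8% higher in Ind-8 against Con-3; the comparisons share arrays.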

How the data were processed

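Values are the deposited log2 levels that the authors made by RMA (no version given) from Affymetrix mouse arrays with RefSeq-based probe sets. Names came from RefSeq transcripts of GRCm38.p6, as did the promoter sequences, and matched 18294 of 22523 probe sets (81.2%). Probe sets with identical values were counted once, leaving 18172 profiles. Differences between lines were tested with limma on all 8 arrays (means of 3 lines, moderated t), and p was adjusted over all profiles by Benjamini and Hochberg, with a call at an adjusted p under 0.05. Genes with values in the text are the members, the pocket proteins, the genes that check labels and cell types, and the 4 called genes with the largest difference in each other list and comparison; others are marked where named. Members and lists were chosen with earlier results of these data known, and 7 of 117 listed genes were not matched. The study called genes by rank products at a pfp of 0.05, so the limma calls here come from another test, which called more profiles. Alternatives were a rank product test (100 permutations, pfp under 0.05), limma on the compared lines alone or with a trend in the prior, every probe set counted, 1 profile per gene, profiles above the 25th percentile, quantile normalization or median centring of the arrays, a replicate block, a block for the hybridization controls and leaving out each array. The fit was tested on data simulated with changes in Ind-8 alone. Of changes of 0.5 in log2 level it called 47.8% against Con-3 and 34.3% against tI-3. Far fewer profiles were changed there than were called in the real data, so these shares may not carry over. A gene not called may still differ between lines. Tools were R 4.3.3 with limma 3.58.1 and Python 3.11.15 with numpy 2.4.6, pandas 2.3.3, scipy 1.17.1 and matplotlib 3.10.9.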

Additional observations from a re-analysis of the deposited data

How the results depend on the processing

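Member calls in both comparisons with tI-3 were lost with the control-level block. Those in Ind-8 against Con-3 were kept with it and fell to 1 by rank product. The cause was not tested. For tI-3 the block depends on 1 array, Con-3 replicate 3. In tI-3 against Con-3 it moved E2f4 from −0.51 to −0.52 and E2f5 from −0.44 to −0.27. Members called numbered 6 in Ind-8 against Con-3, 3 in Ind-8 against tI-3 and 4 in tI-3 against Con-3. In the same order, the rank product test gave 1, 0 and 0, the control-level block 6, 0 and 0, and quantile normalization 6, 3 and 1, while leaving out 1 array gave 4 to 6, 1 to 3 and 1 to 4. A replicate block gave 6, 3 and 4. Whether replicate numbers pair arrays across lines was not established. Targets called (28, 13 and 16) became 8, 0 and 0 by rank product, 23, 0 and 6 with the control-level block and 29, 13 and 14 with the replicate block. Leaving out 1 array gave 22 to 29, 2 to 13 and 7 to 17. All profiles called (3827, 5584 and 4694) became 676, 365 and 420 by rank product, 583 in Ind-8 against tI-3 and 2486 in tI-3 against Con-3 with the control-level block, and 4221, 6604 and 5192 with the replicate block. Leaving out 1 array gave 2677 to 3606, 2345 to 5783 and 2523 to 4642.

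Signs turned only where no call was made. Quantile normalization gave 0.13 for E2f1 and 0.05 for E2f6 in tI-3 against Con-3, and −0.06 for E2f7 and −0.17 for Tfdp2 in Ind-8 against tI-3. For E2f3 it gave −0.02, −0.12 and 0.11. Median centring gave −0.02 for E2f3 in Ind-8 against Con-3 and −0.04 for Tfdp2 in Ind-8 against tI-3. The replicate block gave 0.01 for E2f2 in tI-3 against Con-3. The control-level block gave 0.11 for E2f1, 0.03 for E2f2, 0.02 for E2f3 and 0.12 for E2f6 in tI-3 against Con-3, and −0.01 for E2f3, −0.07 for E2f6, −0.21 for E2f7 and −0.18 for Tfdp2 in Ind-8 against tI-3. Leaving out 1 array gave ranges in tI-3 against Con-3 of −0.09 to 0.07 for E2f1, −0.15 to 0.14 for E2f2, −0.09 to 0.05 for E2f3 and −0.19 to 0.04 for E2f6. In Ind-8 against tI-3 it gave −0.02 to 0.11 for E2f3, −0.15 to 0.07 for E2f4, −0.10 to 0.22 for E2f7 and −0.06 to 0.04 for Tfdp2, and in Ind-8 against Con-3 −0.05 to 0.11 for E2f3 and −0.10 to 0.09 for E2f5.

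Each line stands for 1 state, tI-3 has 2 arrays, and RNA levels say nothing of protein amount, phosphorylation or promoter binding, none of which was measured. Cell cycle phase was not measured either. The share of arrested cells on each array is not known, and its part in the differences was not tested. Promoter letters were read in RefSeq windows around annotated starts, and starts used in these lines are not known.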
